A study of Mus musculus with 15 samples.

Results

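The genes examined here encode parts of the mouse sperm tail: the outer dense fibers (Odf1, Odf2, Odf3 and Odf4), the fibrous sheath (Akap3, Akap4, Fscb and Ropn1), and 2 proteins of late sperm assembly that are usually studied beside them, Smcp and Oaz3. Members were taken by symbol, and each of the 10 symbols named 1 of the 32285 genes counted. Single-cell RNA-seq was run on 15 testis libraries, each from 1 testis of 1 adult DBA/2J male, with 3 mice in each of 5 groups. T mice received JQ1, an inhibitor of the bromodomains of the BET proteins including the testis-specific BRDT, at 50 mg/kg by daily injection for 3 wk and were sampled at the end of dosing at 10 wk of age. VC-T mice were given vehicle alone (DMSO in cyclodextrin) over the same 3 wk and were also 10 wk old. R mice had the same JQ1 course and were sampled 6 wk after the last dose at 16 wk of age, VC-R mice were their vehicle controls at 16 wk, and untreated UC mice were 15 wk old. Age therefore cannot be told apart from group where UC serves as the control of T, or where R is compared with T.

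The sperm tail is built around a microtubule axoneme. Outer dense fibers run along the microtubule doublets and stiffen the tail, while the fibrous sheath encloses the principal piece and carries anchored protein kinase A and enzymes of glycolysis. In the midpiece, mitochondria are wrapped around the fibers. Transcription stops as the spermatid nucleus condenses, so that many tail mRNAs are made early and stored in an untranslated form until the protein is needed. The members are therefore widely used as markers of the haploid phase.

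Counts are unique molecular identifiers (UMIs, 1 per captured RNA molecule), and levels are CPM, the UMIs of a gene as a per-million share of all UMIs of the same cells. Libraries held 9673587 to 98724982 UMIs, and 2430 to 12744 cells per library passed the filters, 72362 in all. Clusters were named from markers that did not include the members, giving 2109 cells of the spermatogonia-like class, 17433 of the spermatocyte-like class, 21688 spermatid-like cells and 22198 spermatozoa-like cells. "Spermatozoa" is the class name of the study, which counts Smcp among its markers. Here the class was named without Smcp, from protamines, transition proteins, Tssk6 and Spem1, textbook genes of elongating spermatids. Spermatozoa-like cells numbered 1, 1 and 3 in the T libraries and 0 in VC-T 1, so T enters no comparison of that class. VC-T 1 stood apart from the other vehicle libraries, the study left it out of its tests, and it was left out here unless stated. Of the barcodes of kept cells, 663 occurred in more than 1 library.

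Positions are those of GRCm38 in GENCODE vM21, which gives all 10 members as protein-coding genes. Odf1 (15:38219203-38226735, plus strand) encodes a cysteine-rich core protein of the fibers, and Odf2 (2:29889221-29931746, plus) encodes their major coiled-coil scaffold, which also occurs at centrosomes. Odf3 (7:140847805-140851018, plus) and Odf4 (11:68921835-68927081, minus) encode further fiber-associated proteins. Akap3 (6:126853098-126874308, plus) and Akap4 (X:7067519-7078609, plus) encode the A-kinase anchoring proteins that form most of the fibrous sheath. Fscb (12:64471330-64474690, minus) encodes a calcium-binding sheath protein, and Ropn1 (16:34649921-34678618, plus) encodes ropporin, which binds the anchoring proteins. Smcp (3:92583867-92588997, minus) encodes a cysteine-rich protein of the mitochondrial capsule of the midpiece, and Oaz3 (3:94432414-94443915, minus) encodes the haploid-cell antizyme, a member of the family that inhibits ornithine decarboxylase. No member overlaps another gene on its own strand. Genes on the opposite strand overlap Odf2, Odf3 and Oaz3.

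Along differentiation the members were not switched on together. Cells were ordered by pseudotime, a ranking by gradual transcript change, in 51 bins numbered 0 to 50. Over the 6 UC and VC-R libraries, the middle 90% of spermatocyte-like cells lay in bins 2 to 17, of spermatid-like cells in bins 14 to 32 and of spermatozoa-like cells in bins 34 to 50. Odf4 was the earliest member: it reached 50% of its highest level at a median of bin 4.5 (range 3 to 5), peaked at bin 18 (17 to 18) and was still at 77.1% of its peak in the last bin. Odf3 peaked at bin 26.5 (26 to 29), Ropn1 at bin 33 (32 to 34) and Akap3 at bin 34 (32 to 34). These 3 then declined, to a median of 4.98% of the peak for Odf3, 19.3% for Ropn1 and 6.85% for Akap3. The other 6 members, Odf1, Odf2, Akap4, Fscb, Smcp and Oaz3, were highest at a median of bin 50, the end of the ordering. Among these, the median bin at 50% of the highest level was 25 for Fscb, with a wide range of 24 to 37, and then 34 for Odf2, 35 for Akap4, 38 for Odf1 and Smcp and 38.5 for Oaz3. In R, Fscb reached that level at bin 37 (37 to 39), after Odf2 at bin 34, so its place in the order was not stable. The genes, as shares of all UMIs, were thus split. There was 1 that was high from the spermatocyte on, 3 that were transient and 6 still at their highest in the most mature cells. Counts per cell rose less. Between the first and last of 3 pseudotime ranges of UC spermatozoa-like cells, Odf2 went from 3656 to 5932 CPM. It was at 14.7 UMIs per cell in both. Akap4 went from 4.71 to 4.87 UMIs per cell, Smcp from 30.6 to 37.7 and Oaz3 from 5.89 to 7.02. Of the transient genes, Odf3 peaked among the spermatid-like bins. The median peaks of Ropn1 and Akap3 lay past bin 32, where the spermatid-like class gives way to the spermatozoa-like class. The members were not used in the ordering. In R the median peaks of the transient genes were at bin 27 for Odf3 and bin 34 for Akap3 and Ropn1.

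**Figure D1:**
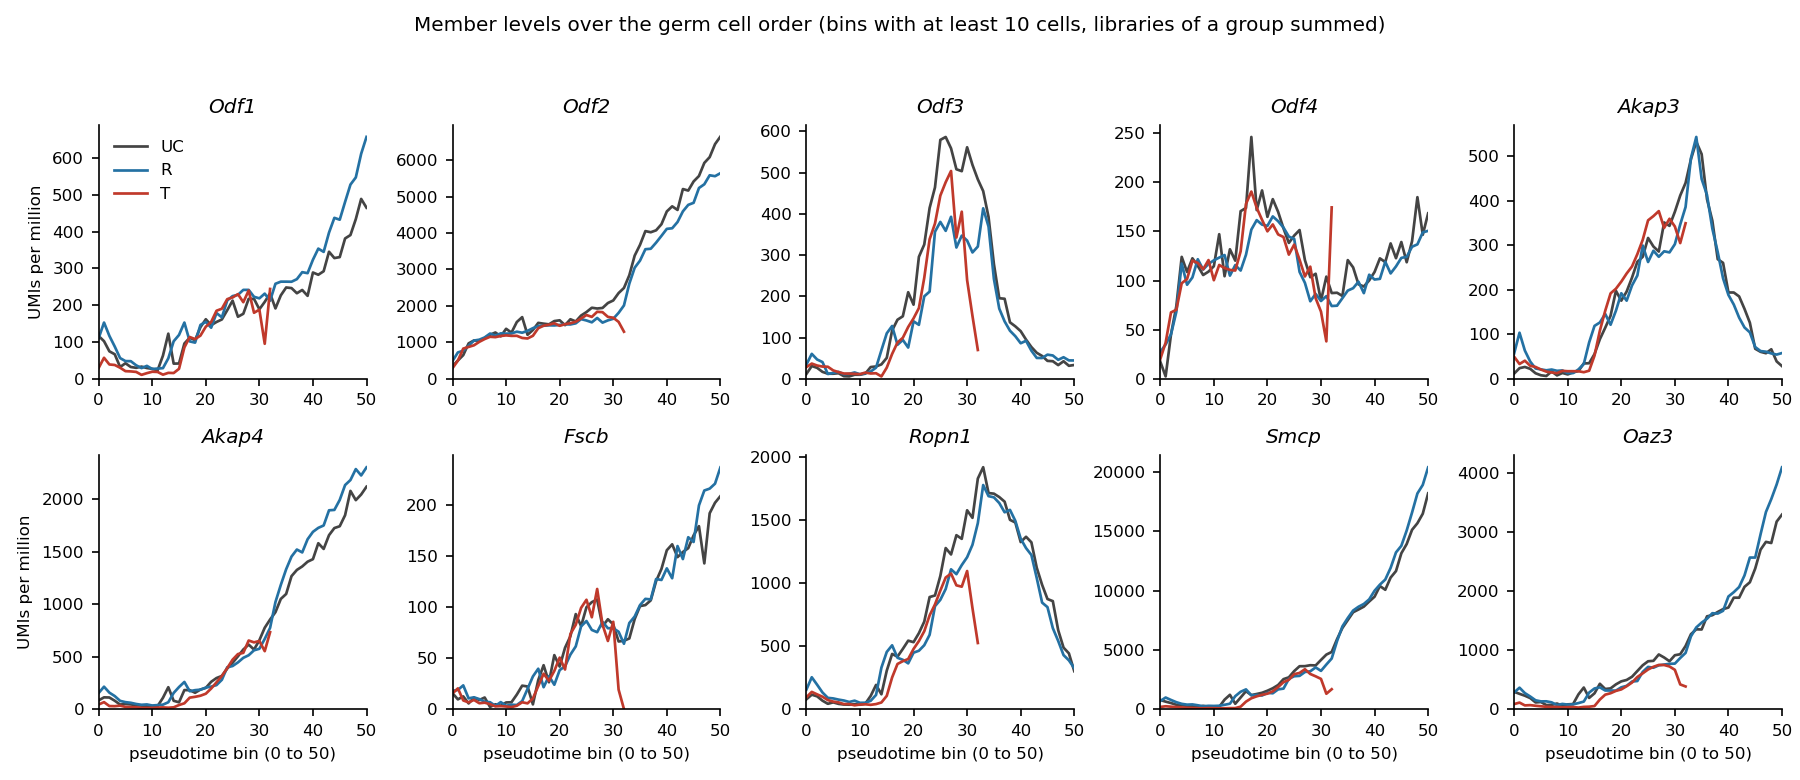
Level of each member (CPM, vertical axes) over pseudotime bins 0 to 50 (horizontal axis), with the cells of each group's 3 libraries summed and bins of at least 10 cells drawn. Odf4 is high from the early bins, Odf3, Ropn1 and Akap3 rise and decline, the other 6 climb to the last bin, and the T line ends at bin 32.

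The late members other than Odf2 moved along the ordering with very similar profiles. Over the 51 bins of the summed UC cells, Pearson's r was 0.995 for Smcp with Oaz3, 0.991 for Smcp with Akap4 and 0.989 for Akap4 with Oaz3. Odf2 was further from the other late members, with r from 0.768 (Odf1) to 0.872 (Smcp). Among the transient genes r was 0.948 for Akap3 with Ropn1, 0.944 for Akap3 with Odf3 and 0.863 for Ropn1 with Odf3. Ropn1 was as close to the late members Fscb (0.867), Akap4 (0.863) and Smcp (0.862) as to Odf3. Odf4 followed none of the others closely, with r between 0.093 and 0.436. These are descriptions without a test, since all bins come from the same 3 libraries. Of 7572 genes compared, those whose profile was nearest to the mean of the members were 1700019D03Rik (r = 0.991), Lrrc18 (0.990), Iqcf5 (0.987), Spata20 (0.987) and 1700003F12Rik (0.987).

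The 250 bases before the start of a gene, from RefSeq on GRCm38.p6, were read for 8 of the 10 members. The RefSeq start can differ from the GENCODE start given above: it is the same for Akap3, lies 4 bases before it for Akap4, 208 before it for Fscb and 76 before it for Smcp, and 111 bases after it for Odf3. The windows of the 2 sheath anchoring genes are shown because they share a run of 20 bases, in capitals, in the same orientation and at nearly the same distance from the start, although Akap3 is transient and Akap4 is late. The run lies 34 to 15 bases before the start of Akap3 (window 6:126852848-126853097, plus strand) and 47 to 28 bases before that of Akap4 (window X:7067265-7067514, plus strand).
Akap3: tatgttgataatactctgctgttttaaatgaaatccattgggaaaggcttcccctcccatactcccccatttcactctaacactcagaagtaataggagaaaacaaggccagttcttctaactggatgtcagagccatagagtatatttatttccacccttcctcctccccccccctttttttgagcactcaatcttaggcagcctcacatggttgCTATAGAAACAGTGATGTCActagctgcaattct
Akap4: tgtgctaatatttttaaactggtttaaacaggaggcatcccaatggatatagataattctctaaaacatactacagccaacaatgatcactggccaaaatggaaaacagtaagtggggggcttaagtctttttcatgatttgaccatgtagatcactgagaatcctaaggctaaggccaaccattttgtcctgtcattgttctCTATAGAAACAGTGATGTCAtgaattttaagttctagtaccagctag
Only 2 of 32851 windows of all genes held this run on either strand. Among the 28 pairs of members with a window, the next longest shared run was 11 bases, and the median was 9. The last 9 bases of the run, GTGATGTCA, also occurred in the window of Fscb, another sheath gene, 52 to 44 bases before its start (12:64474932-64474960, minus strand, capitals mark the 9 bases).
Fscb: agaattggttGTGATGTCAcagacccttg
This stretch was present on either strand in 410 windows, 1.25% of all. It was chosen after the windows had been read, and a match of letters is a description and not a site.

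For comparison, 3 motifs were searched on both strands of the same windows: the cyclic-AMP response element core TGACGT, held by 6.47% of all windows, the TATA box TATAAA, held by 12.4%, and the RFX-type motif GTTGCC, held by 10.4%. Among the members the only match was GTTGCC in Odf3, 65 to 60 bases before the RefSeq start and thus inside the gene as GENCODE has it, shown with the motif in capitals (7:140847841-140847866, plus strand).
Odf3: tttttagggaGTTGCCtggcacagac
The window of Smcp held none of the 3 motifs and is shown because its profile was almost that of Akap4 (3:92589074-92589323, minus strand).
Smcp: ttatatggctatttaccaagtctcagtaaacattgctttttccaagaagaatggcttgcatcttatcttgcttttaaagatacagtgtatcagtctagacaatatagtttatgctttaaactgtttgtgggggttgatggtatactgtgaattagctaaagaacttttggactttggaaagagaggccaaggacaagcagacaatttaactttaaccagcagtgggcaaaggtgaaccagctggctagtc
The windows of Akap3, Akap4 and Smcp shown here were 42.8%, 37.2% and 38% G or C, and the second window of Akap4 was 44.4%. The median over all windows was 52.4%. The 4 windows of Odf2 (68.4% to 72.8%), inside the gene as GENCODE has it, and that of Odf3 (53.6%) lay above that median.

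In untreated testes the CPM levels by class followed the same split, except that Ropn1 was not lower in spermatozoa-like cells on that scale. Smcp measured 3154 ± 351 CPM in spermatid-like cells and 10366 ± 652 in spermatozoa-like cells (SD, n = 3 UC libraries, as for all values in this paragraph). Akap4 went from 493 ± 17.7 to 1498 ± 67.8 between the same classes, Oaz3 from 747 ± 15.2 to 1936 ± 92.4, and Odf2 from 1875 ± 36.2 to 4580 ± 113. Smaller steps were measured for Odf1, from 181 ± 8.01 to 294 ± 17.1, and for Fscb, from 81.5 ± 11.2 to 138 ± 13.5. Odf3 was instead higher in spermatid-like cells, at 447 ± 12.0 against 155 ± 15.7, and Akap3 stood at 314 ± 6.96 against 255 ± 8.35. Ropn1 was 1146 ± 137 in spermatid-like and 1298 ± 49.2 in spermatozoa-like cells, with overlapping libraries. In UMIs per cell Ropn1 was instead lower in spermatozoa-like cells, at 4.15 ± 0.25 against 6.60 ± 1.56. On that scale Odf1 (1.04 in spermatid-like and 0.94 in spermatozoa-like cells) and Fscb (0.47 and 0.44) did not rise, while Smcp did (18.1 and 33.3). Odf4 lay at 14.5 ± 4.41 in spermatogonia-like cells and then at 115 ± 9.43, 135 ± 7.95 and 117 ± 1.28 in the classes that follow. Classes come from the same mice and were named from genes that change with stage, so these levels are given without a test.

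Counts of the late members in premeiotic and somatic cells set a background. In the 67 Leydig-, macrophage- and myoid-like cells of UC, which should not express tail genes, Smcp stood at 1876 CPM (95% exact Poisson interval 1670 to 2100), Akap4 at 304 (225 to 402), Odf1 at 193 (131 to 273) and Odf3 at 106 (61.5 to 169). Intervals cover counting error only. The UC means of Smcp in spermatogonia-like cells (771 ± 336) and spermatocyte-like cells (602 ± 536) lay below that level, and so did those of Akap4 (108 ± 41.1 and 80.7 ± 60.7) and Odf1 (119 ± 64.4 and 53.2 ± 24.8). For Odf1 even the spermatid-like mean of 181 did not exceed it. Counts of these genes before the spermatid stage are therefore read as background and not as expression. In the 32 such somatic cells of T, Smcp stood at 141 CPM (56.8 to 291) and Akap4 at 40.4 (4.89 to 146), both below the UC interval. Of these cells 17 came from T 1, 0 from T 2 and 15 from T 3. Sertoli-like cells were not counted in this background. They held Smcp at 1078 and 661 and Akap4 at 146 and 264 in T 1 and T 3, above the T values just given. Their UC means were 1905 and 266. Odf4 differed from this picture by a small margin, at 62.1 (29.8 to 114) in the somatic cells of UC against 115 in spermatocyte-like cells. The lowest and the median UC library of that class (108 and 111) lay inside the interval. Odf2 stood at 1230 in the somatic cells of UC, close to its spermatocyte-like mean of 1256 ± 194.

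**Figure D2:**
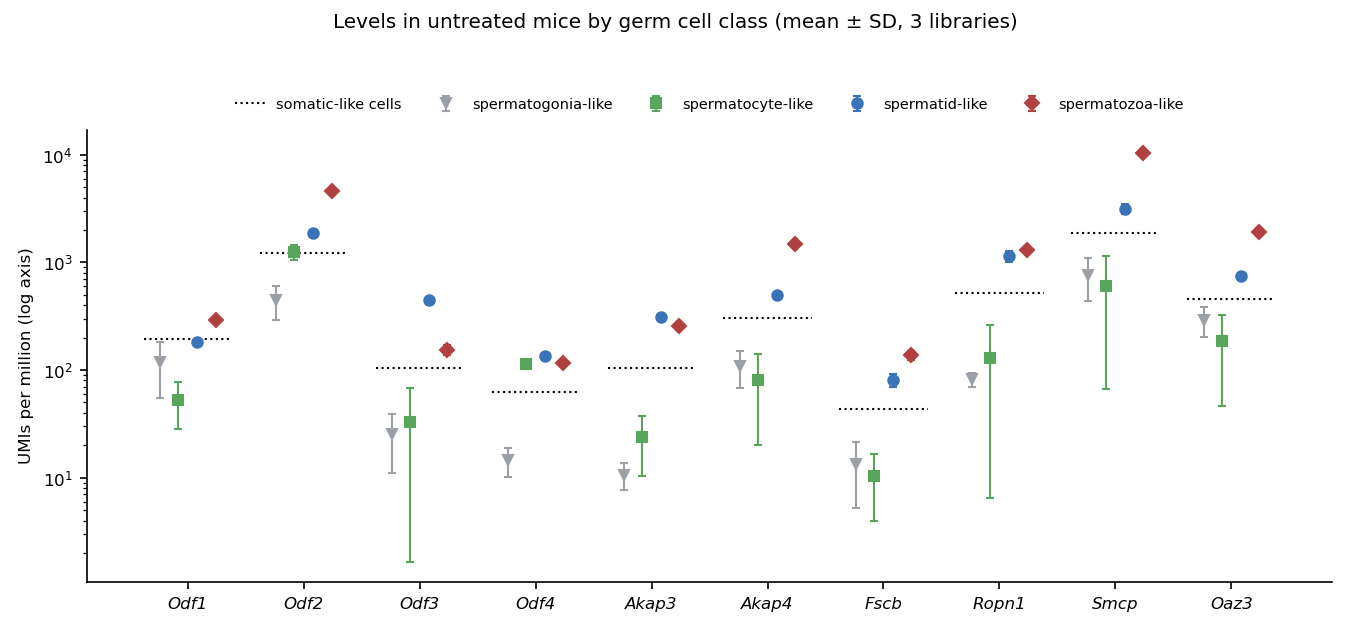
Level of each member in the UC libraries (CPM, log axis) by cell class, as mean ± SD of 3 libraries, with the level in Leydig-, macrophage- and myoid-like cells as background. Smcp, Akap4, Oaz3 and Odf2 are highest in spermatozoa-like cells, Odf3 in spermatid-like cells, and Odf4 is near 115 to 135 from spermatocyte-like cells on.

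At the end of JQ1 dosing most tail transcripts were scarce in the testis as a whole. In all cells of a library summed, Smcp measured 831, 626 and 680 CPM in T 1 to T 3, against 5196, 6249 and 5087 in UC 1 to UC 3. The highest T value was thus far under the lowest UC value. Akap4 measured 131, 90.7 and 92.9 in T and 767, 869 and 740 in UC. Oaz3 measured 217, 158 and 182 in T and 1025, 1165 and 1096 in UC. On the log2 scale Smcp was lower by 3.56 (SE 0.15, 11.8-fold), Akap4 by 3.52 (SE 0.16, 11.5-fold) and Oaz3 by 3.17 (SE 0.13, 8.98-fold), with adjusted p of 1.6e-09, 2.2e-09 and 1.1e-09 in edgeR's quasi-likelihood test, Benjamini-Hochberg adjusted over all genes. These fitted folds use TMM scale factors and are larger than the ratios of the CPM values just given. Ropn1 (log2 fold change -2.43), Fscb (-2.29), Odf1 (-2.06), Odf2 (-1.79), Odf3 (-1.63) and Akap3 (-1.53) were lower too, and in each the T and UC libraries did not overlap. The exception was Odf4, the gene already high in spermatocytes, at 121, 122 and 113 in T and 122, 117 and 118 in UC.

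In this comparison 9 of the 10 members were called lower (adjusted p under 0.05 and more than 1 log2 unit), where 19.5% of all 17711 genes tested were. The median log2 fold change was -2.17 over the members and 0.07 over all genes. Against VC-T 2 and VC-T 3 again 9 of 10 were called lower, where 23.5% of all genes were, among them Smcp (-2.96, edgeR adjusted p = 3.6e-08) and Akap4 (-2.92). T is shared by both comparisons. In VC-T 1 the all-cell values were near those of T, 867 for Smcp and 165 for Akap4, and with that library included none of the 10 members was called. Fewer cells of a class and less RNA per cell cannot be told apart in such sums, and T held almost no spermatozoa-like cells. The fitted change also depends on the scale: with library UMI totals in place of TMM factors, the median of all genes in T against UC moved from 0.07 to 0.67 and the count of members called from 9 to 8, and in T against VC-T the median moved from -0.01 to 0.39 and the count from 9 to 6. For Odf4 the fitted -0.60 (edgeR adjusted p = 0.00011) became 0.00 with totals.

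Within spermatid-like cells, the last class that T still held in number, the deficit was smaller but present. Odf3 measured 272, 245 and 233 CPM in T and 435, 459 and 447 in UC. Akap4 measured 301, 272 and 230 in T and 498, 509 and 474 in UC, and Ropn1 measured 674, 647 and 621 against 1160, 1275 and 1003. In all 3 the T libraries lay below every UC library. Log2 fold changes were -1.11 for Akap4 (SE 0.09, edgeR adjusted p = 3.2e-07), -1.07 for Odf3 (SE 0.08, 7.2e-08) and -1.07 for Ropn1 (SE 0.09, 4.3e-07). These 3 were the members called lower, where 13.4% of 12951 genes were. Smcp, at 1972, 1902 and 1804 in T and 3308, 3401 and 2751 in UC, missed the fold threshold with -0.98 (edgeR adjusted p = 6e-07), as did Oaz3 with -0.93 (8.2e-08).

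The other members changed less. Fscb was lower by 0.53, Odf2 by 0.49, Akap3 by 0.49 and Odf1 by 0.34 on the log2 scale, with edgeR adjusted p of 0.0019, 5.2e-06, 4.2e-05 and 0.0026. For Odf1 the T values of 175, 161 and 169 overlapped the UC values of 175, 190 and 177, and the UC values lay under the somatic background of UC (193). In T that background was 20.2 (0.51 to 113, from 1 UMI), below the T values. Odf4 stood at 145, 157 and 141 in T and 126, 139 and 141 in UC, a fitted -0.11 (edgeR adjusted p = 0.27). In all, 9 of 10 members were lower at an adjusted p under 0.05 at any size, where 26.6% of all genes were, and the median was -0.73 over the members against 0.05 over all genes. With UMI totals as the scale the median of all genes was 0.28 and 8 members passed at any size, but 0 by more than 1 log2 unit.

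Both anchoring and fiber genes were also lower than in the vehicle control. Against VC-T 2 and VC-T 3, Ropn1 was lower by 1.15, Akap4 by 1.09, Smcp by 1.02, Oaz3 by 0.95 and Odf3 by 0.94 on the log2 scale, with edgeR adjusted p from 2.2e-05 to 0.00012. Ropn1, Akap4 and Smcp were the 3 called, where 16.2% of all genes were called lower, and 9 of 10 were lower at any size, where 24.6% were. Odf4 again had the smallest change (0.08, edgeR adjusted p = 0.61). These 3 calls were lost with VC-T 1 included, whose values (1906 for Smcp, 652 for Ropn1) lay within or beside those of T, and also with UMI totals, after background subtraction and in cells matched for pseudotime (0 called in each). In the matched cells Ropn1 (-0.49) and Smcp (-0.33) were still lower at an edgeR adjusted p under 0.05. The most mature pseudotime range of the class held 36.6% and 39.6% of the cells in VC-T 2 and VC-T 3, against 6.38% to 8.50% in T.

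**Figure D3:**
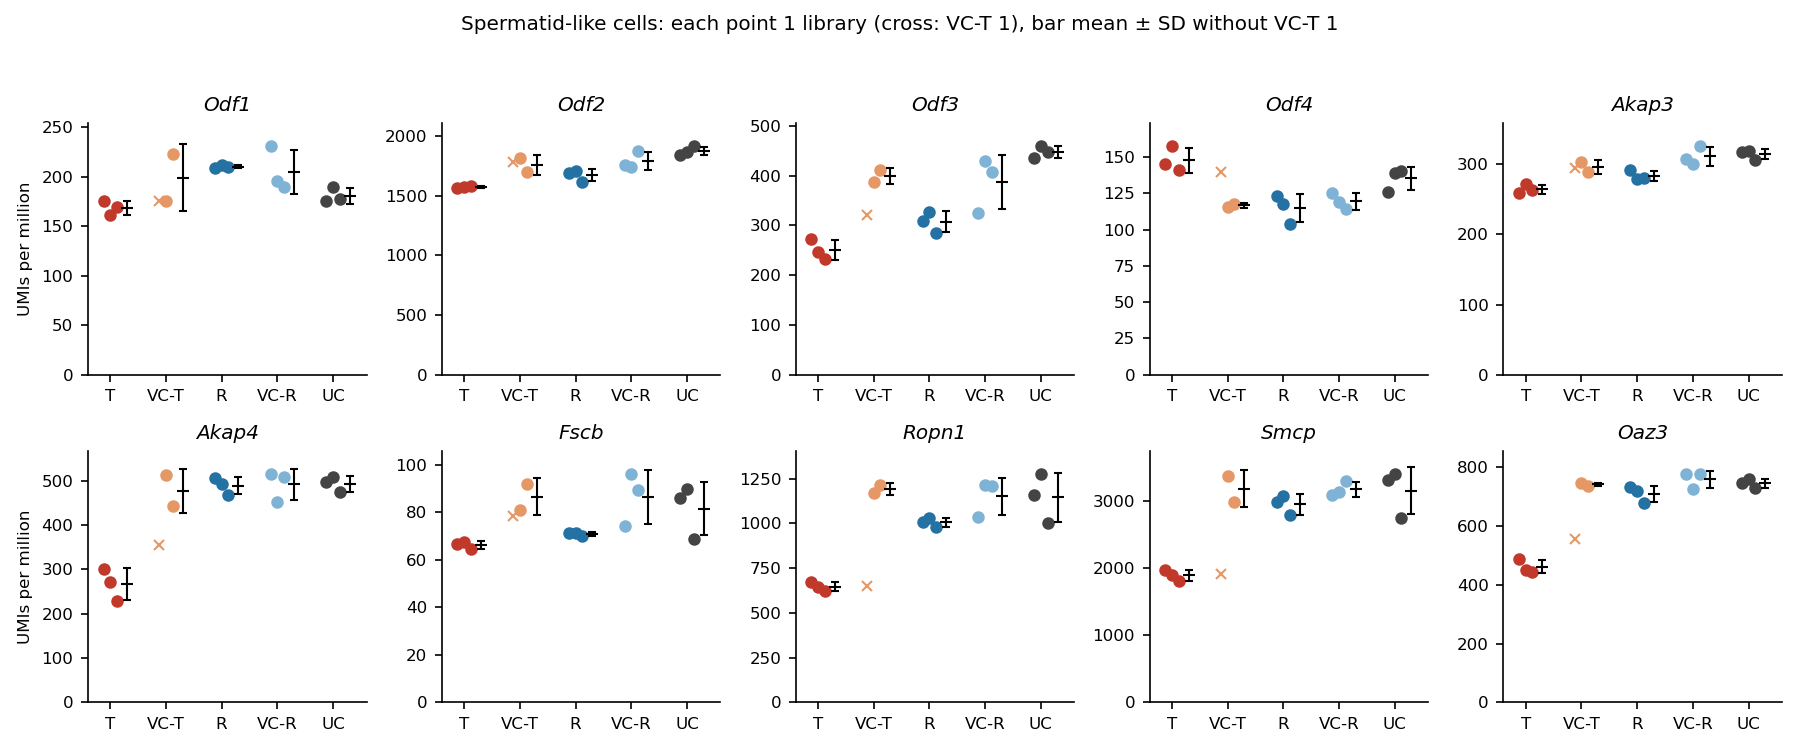
Level of each member in spermatid-like cells (CPM, vertical axes) by group, with 1 point per library and a bar at the mean ± SD of 3 libraries. For Odf3, Akap4, Ropn1, Smcp and Oaz3 the T points lie below all UC points, VC-T 1 lies near T for Ropn1 and Smcp, and Odf4 differs little between the groups.

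T spermatid-like cells also lay earlier in the ordering. The median pseudotime bin of spermatid-like cells was 20 to 21 in T and 25 to 26 in UC, and the late range of the class (the last of 3 pseudotime ranges, early, middle and late) held 8.50%, 6.38% and 7.78% of T cells and 36.7%, 42.9% and 39.7% of UC cells. Comparisons were therefore repeated within each range. In the early range, Odf3 (-0.60, edgeR adjusted p = 0.0015), Akap4 (-0.53, 0.0014), Oaz3 (-0.45, 0.00046) and Ropn1 (-0.34, 0.0067) were lower, 4 of 10 where 5.77% of all genes were. In the middle range 6 of 10 were lower, where 12% of all genes were: Odf3 (-0.66, edgeR adjusted p = 2.5e-08), Oaz3 (-0.43), Ropn1 (-0.38), Smcp (-0.33), Akap4 (-0.32) and Odf2 (-0.16). In the late range 7 of 10 were lower, where 18.1% of all genes were, and Ropn1 (-1.16, edgeR adjusted p = 0.00078) and Smcp (-1.09, 0.0039) passed 1 log2 unit. Those 2 calls became 0 with UMI totals or after background subtraction, and 1 to 5 members were called when 1 library was left out (5 without T 1, 1 without T 3). Odf3 followed with -0.88, Oaz3 with -0.84, Akap4 with -0.71, Odf2 with -0.70 and Akap3 with -0.51. The median over the members was -0.30, -0.29 and -0.70 in the early, middle and late range.

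Odf3, Akap4, Ropn1 and Oaz3 thus passed in all 3 ranges, while Odf1, Odf4 and Fscb passed in none. These calls depended on the background: after subtraction of the somatic level no member was lower at an edgeR adjusted p under 0.05 in any range. Odf3 was then at -0.29, -0.45 and -0.74 in the early, middle and late range. Akap4 (10.18 and 1.07), Ropn1 (0.64 and 0.13) and Oaz3 (2.72 and 0.65) turned to the opposite sign in the early and middle range, and 6 members in the early and 1 in the middle range then passed as higher in T. When 339 cells per library were drawn so that T and UC had the same spread over pseudotime, all members except Odf4 changed less, and 7 of 10 were lower where 10.5% of all genes were. Odf3 had the largest change at -0.59 (edgeR adjusted p = 3.6e-06), followed by Ropn1 (-0.38, 0.00024), Odf4 (-0.37, 0.01), Oaz3 (-0.35, 4e-04), Smcp (-0.33, 0.00074), Akap4 (-0.25, 0.048) and Odf2 (-0.18, 0.025), none past 1 log2 unit. Fscb was at -0.15, and Odf1 (0.04) and Akap3 (0.02) were near 0. The Odf4 change was instead larger than the -0.11 of the whole class. With pseudotime matched, Akap4 thus went from -1.11 to -0.25, Smcp from -0.98 to -0.33 and Odf3 from -1.07 to -0.59. Pseudotime was computed from transcripts of the same cells, T included. Cells matched on it are therefore not known to be equal in stage. In the whole class, after a subtraction of the somatic background, only Odf3 (-0.86, edgeR adjusted p = 0.019) and Ropn1 (-0.67, 0.039) were still lower. The part that stage and background RNA have in the whole-class difference was not tested beyond these values.

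**Figure D4:**
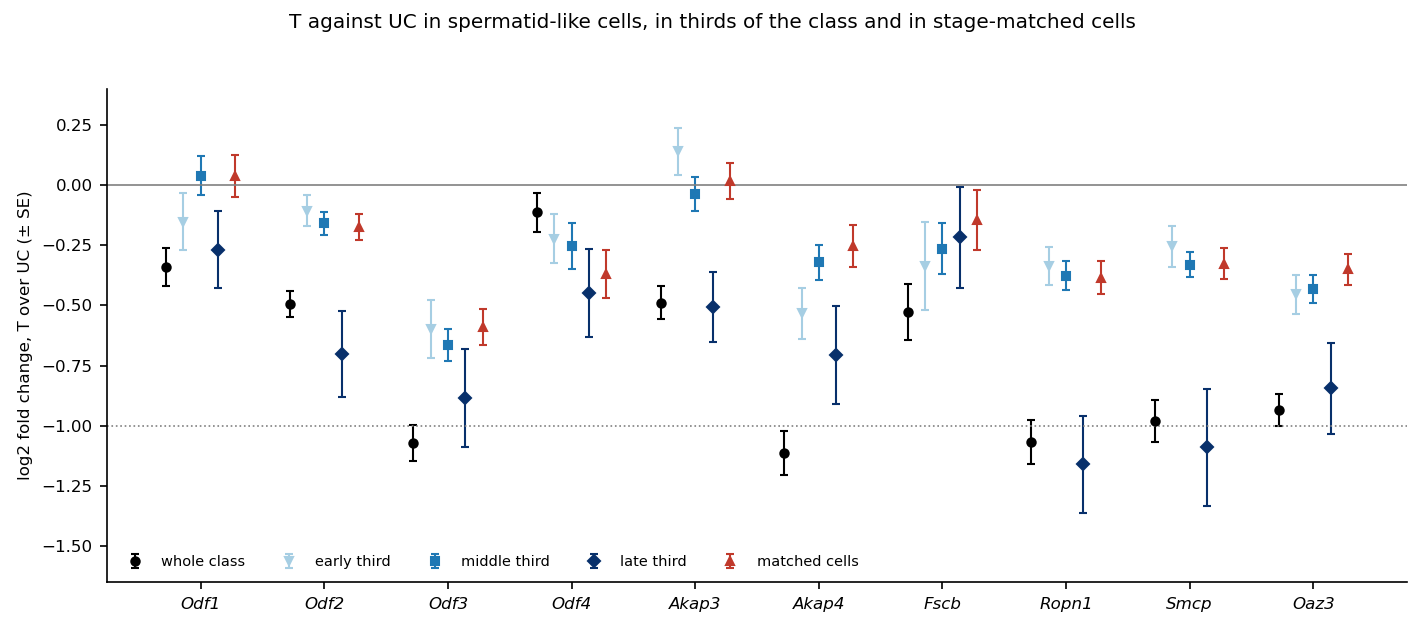
Log2 fold change of T over UC (horizontal axis, error bars 1 SE) for each member in all spermatid-like cells, in the early, middle and late range, and in cells matched for pseudotime. Odf3 lies between -0.59 and -1.07 in every set, Akap4 moves from -1.11 to -0.25 with matching, and Odf1 and Akap3 are near 0 in matched cells.

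In spermatocyte-like cells the UC means of all members except Odf4 lay near or below the somatic level of UC, and differences there are given with that limit. In spermatocyte-like cells Smcp measured 136, 63.7 and 70.3 in T, 254 and 180 in VC-T 2 and VC-T 3, and 1220, 291 and 294 in UC, all under the somatic level of UC. UC 1 was the high library for Smcp, Akap4 (150 against 37.6 and 54.4) and Ropn1 (281 against 42.7 and 63.7). Against UC 0 members were called, where 0.87% of all genes were, although 5 had an unadjusted p under 0.05 in edgeR and 4 were called lower by DESeq2, where 2.61% of all genes were. Samples with the same replicate number deviated together in this comparison, and with the number as a block 5 were called lower, where 3.87% of all genes were: Smcp (-2.61, edgeR adjusted p = 0.00027), Akap4 (-2.31, 0.00018), Oaz3 (-2.16, 0.00082), Odf1 (-1.5, 0.00033) and Fscb (-1.23, 0.036). Same-numbered samples are separate mice, and the block was chosen from correlations in these same data (0.64, 0.38 and 0.107). The p-values of the blocked fit therefore carry less weight than those of the main fit. Without UC 1 the main fit called 3. Against VC-T, Smcp (-1.34, edgeR adjusted p = 0.0071), Akap4 (-1.30, 0.019) and Oaz3 (-1.19, 0.0039) were called, 3 of 10 where 4.61% of all genes were. None was called with VC-T 1 included, and 1 was without T 3 or without VC-T 2. After background subtraction only 2 members had enough counts to be tested, and 0 were called. Odf4, whose UC mean at this stage lay only just above the somatic interval of UC, was between 96.4 and 126 over all 15 libraries. Odf2 was between 1037 and 1466. The Odf2 mean lay above the somatic interval in T (1094 against 263 to 648), VC-T (1147 with VC-T 1, against 589 to 795) and R (1189 against 939 to 1027). In VC-R and UC it did not. Sertoli-like cells, which are not part of that background, had Odf2 means of 875 in T, 1088 in VC-T and 1500 in R.

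In spermatogonia-like cells Odf4 and Fscb did not pass the filter on low counts, the only members to miss it in any comparison, and 4 of the 8 tested were called in T against UC, where 2.32% of all genes were called in either direction. Smcp (-2.07, edgeR adjusted p = 0.0012), Odf1 (-1.79, 0.028) and Oaz3 (-1.77, 6e-04) were lower, from UC levels under the somatic background. Akap3 went the other way, with 54.2, 34.5 and 38.8 in T and 9.82, 8.20 and 14.1 in UC (1.87, edgeR adjusted p = 0.036), also under its background of 106 in UC and 101 in T. After background subtraction no member had enough counts in this class to be tested.

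Other genes of the sperm tail moved in both directions. Of 35 such genes tested in spermatid-like cells, 11 were higher and 19 lower in T than in UC at an edgeR adjusted p under 0.05, where 22.6% of all genes were higher and 26.6% lower, and 1 and 5 were past 1 log2 unit. By group, 3 higher and 5 lower were relatives and partners of the outer dense fiber proteins (9 tested), 4 and 4 were fibrous sheath and protein kinase A anchoring genes (9 tested), 1 and 3 were sheath glycolysis genes (5 tested), and 3 and 3 were genes of the mitochondrial sheath (6 tested). Both annulus genes were lower, as were 2 of 4 genes of polyamine control, with 0 higher in either. The smallest adjusted p among the lower genes belonged to Spata18, a mitochondrial protein gene, at 69.1 in T and 234 in UC (-1.98, edgeR adjusted p = 6.1e-09).

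Prkar2a stood out in size. It encodes the type II alpha regulatory subunit of protein kinase A, which the anchoring proteins Akap3 and Akap4 bind. Its mean was 12.7 ± 5.37 in T and 128 ± 12.6 in UC (SD, n = 3), a log2 fold change of -3.45 (SE 0.20, edgeR adjusted p = 1.3e-08). It was -3.32, -1.35 and -1.85 in the early, middle and late range and -1.60 in cells matched for pseudotime. That was a larger change than that of any member in those matched cells. In R its mean was 132, and R against T differed by 3.23 (edgeR adjusted p = 2.8e-12). Gapdhs, the sperm glyceraldehyde-3-phosphate dehydrogenase of the sheath, was at 585 in T and 1213 in UC (-1.29, edgeR adjusted p = 2.4e-08). Among the higher genes, Odf2l was at 61.9 in T and 27.0 in UC (0.97, edgeR adjusted p = 6.8e-05), Spag5 at 24.4 and 10.3 (1.02, 0.00011), and Fsip2, a sheath-interacting protein gene, at 509 and 320 (0.43, 0.00014).

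At 6 wk after the last dose the late tail transcripts were at or above the vehicle level in the testis as a whole. All-cell Smcp measured 6294, 6208 and 6409 in R, 5131, 5752 and 4501 in VC-R, and 5196, 6249 and 5087 in UC. Akap4 measured 911, 873 and 862 in R, 811, 704 and 690 in VC-R, and 767, 869 and 740 in UC. Against VC-R, 0 of 10 members passed an edgeR adjusted p of 0.05, where 2.14% of all genes did in either direction. 4 members had an unadjusted p under 0.05, and DESeq2 called 0. Against UC 3 of 10 passed, where 13% of all genes did: Odf1 was higher (0.32, edgeR adjusted p = 0.0058), and Odf3 (-0.56, 0.00039) and Odf4 (-0.23, 0.043) were lower.

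Of the 3 germ cell classes in which R was tested, the spermatid-like class had the most members past the threshold. Odf3 measured 309, 327 and 285 in R, 325, 429 and 407 in VC-R, and 435, 459 and 447 in UC. The R libraries lay below every UC library. Against UC the log2 fold change was -0.75 for Odf3 (edgeR adjusted p = 9.9e-08), -0.45 for Odf4, -0.40 for Fscb, -0.40 for Ropn1, -0.37 for Odf2, -0.36 for Akap3, -0.31 for Smcp, -0.28 for Oaz3 and -0.22 for Akap4, so that 9 of 10 were lower, where 19.6% of all genes were. Odf1 was at 0.01 (edgeR adjusted p = 0.95). Against VC-R 7 of 10 were lower, where 14.9% of all genes were, again led by Odf3 (-0.53, edgeR adjusted p = 0.0019) and followed by Fscb (-0.49), Ropn1 (-0.39), Akap3 (-0.32), Odf2 (-0.29), Smcp (-0.29) and Oaz3 (-0.28). None passed 1 log2 unit.

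Depth per cell and cluster membership differed beside these small differences. R spermatid-like cells had median UMIs of 1453, 1580 and 1962 against 4203, 5454.5 and 4025 in UC, and 76.7% of them lay in 4 clusters that held 16.3% of the UC cells and 14.3% of the VC-R cells of the class. Restricted to cells with at least 2000 UMIs, 1 member was lower against UC and 0 against VC-R, where 5.49% and 0.735% of all genes were. With UMI totals as the scale 4 and 3 were, where 6.39% and 3.99% of all genes were. Against UC 5 members passed in either direction on that scale. Odf1 was the only member with a higher mean CPM in R than in UC (210 against 181). In cells matched for pseudotime 9 were lower in both comparisons, where 18.3% of all genes were lower against UC and 16.9% against VC-R, with Odf3 at -0.86 against UC (edgeR adjusted p = 9.9e-13) and -0.73 against VC-R (3e-04). The part of depth and cluster in the difference was not tested further.

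The class that T lacked was present in R, and the members there lay close to their control levels. In spermatozoa-like cells, Odf1 measured 351, 358 and 381 in R, 342, 333 and 291 in VC-R, and 292, 278 and 312 in UC, and was higher than in UC by 0.28 (SE 0.06, edgeR adjusted p = 0.0026). It was the 1 member of 10 that passed against UC, where 6.04% of all genes did, and 0 passed against VC-R, where 0% did, with 0 at an unadjusted p under 0.05 and 0 called by DESeq2. Smcp measured 10864, 10768 and 11587 in R, 10032, 11575 and 9561 in VC-R, and 10056, 11116 and 9927 in UC. The intervals of the R minus UC difference were narrow: -0.07 to 0.20 for Smcp, -0.00 to 0.24 for Oaz3, 0.01 to 0.26 for Akap4 and -0.31 to -0.06 for Odf2 (95%, log2).

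**Figure D5:**
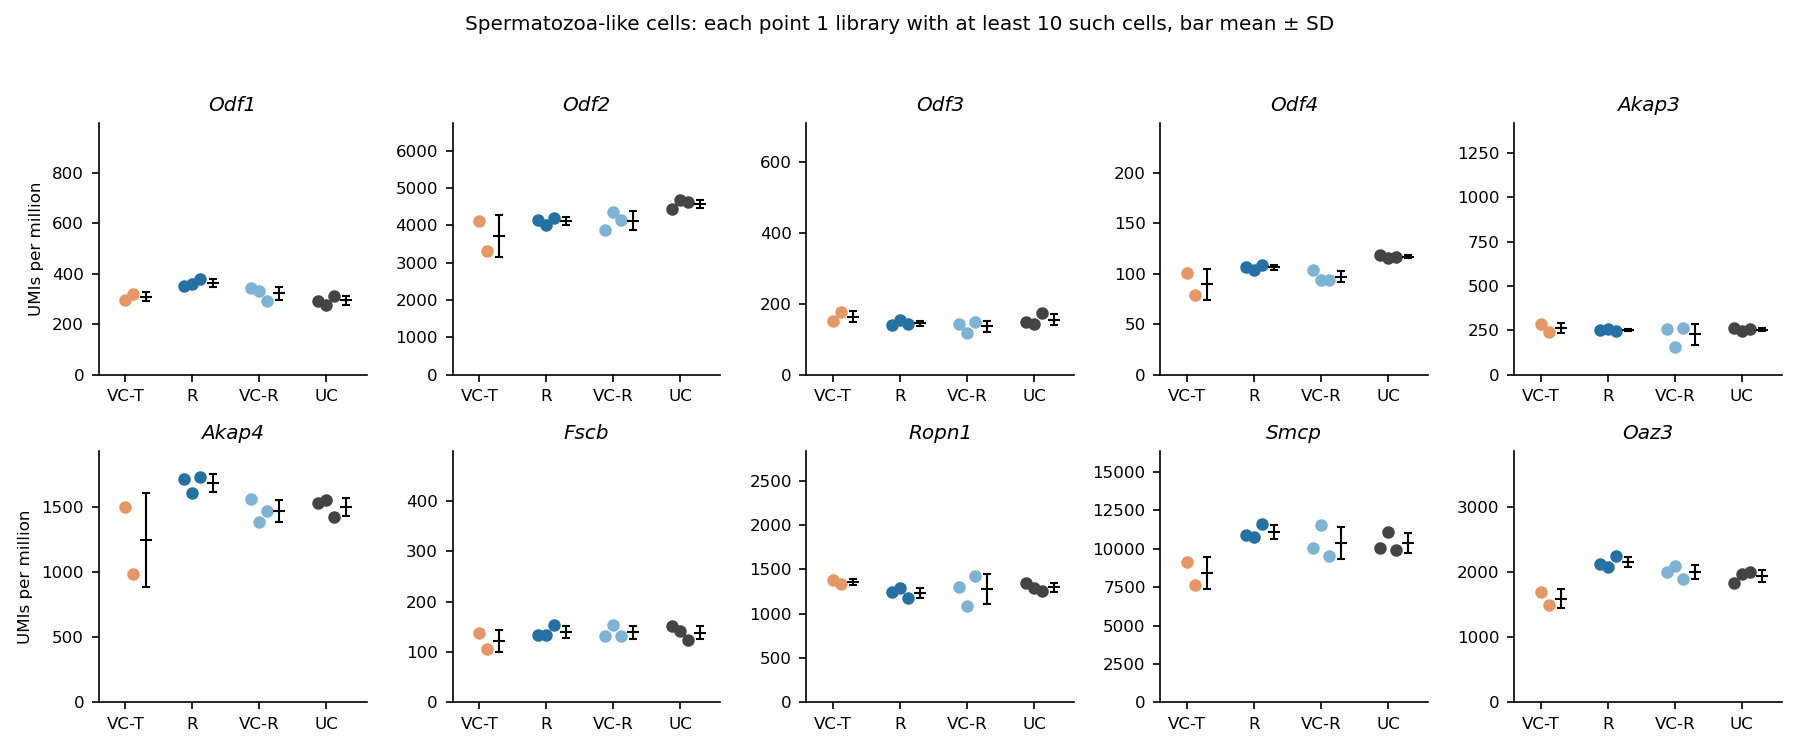
Level of each member in spermatozoa-like cells (CPM, vertical axes) in VC-T, R, VC-R and UC, with 1 point per library of at least 10 such cells and a bar at the mean ± SD. R libraries overlap VC-R for most members, Odf1 in R (351 to 381) lies above UC (278 to 312), and T is absent because its libraries held 1, 1 and 3 such cells.

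In spermatocyte-like cells 0 of 10 members differed between R and UC, where 0.00707% of all genes did, and 0 between R and VC-R, where 0% did, with 0 at an unadjusted p under 0.05 and 0 called by DESeq2 in either. Against T, Smcp (2.23, edgeR adjusted p = 0.00018), Akap4 (2.07, 0.00067), Oaz3 (1.76, 0.00025) and Odf1 (1.37, 0.0053) were called higher in R, 4 of 10 where 5.13% of all genes were, all at levels under the somatic background. After background subtraction 2 members could be tested there and 0 were higher. In spermatid-like cells 6 members were higher in R than in T at any size, where 34.6% of all genes were, namely Akap4 (0.85, edgeR adjusted p = 5.4e-08), Smcp (0.63), Ropn1 (0.62), Oaz3 (0.61), Odf1 (0.30) and Odf3 (0.28). Odf4 was lower (-0.38, edgeR adjusted p = 0.00063), 1 of 10 where 29.9% of all genes were. In 451 cells per library matched for pseudotime none of the 6 was higher, and Odf3 (-0.20, edgeR adjusted p = 0.042) and Akap3 (-0.33, 0.00068) were lower in R. Against UC, in separate draws matched for pseudotime, Odf3 was lower by 0.59 in T and by 0.86 in R on the log2 scale. The late range supplied 63 of 339 cells per library in the T draw and 195 of 494 in the R draw. Depth per cell, lower in R than in UC as given above, was not matched. The T and R values against UC are therefore not ranked.

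The vehicle and untreated controls were compared at 16 and 15 wk of age. Between VC-R and UC 0 of 10 passed in spermatid-like cells, where 0.0839% of all genes did, and 0 in spermatozoa-like cells, where 0.214% did. None had an unadjusted p under 0.05 in edgeR, and DESeq2 called 0. The widest shifts in spermatid-like cells were -0.20 for Odf3 (95% interval -0.42 to 0.03) and 0.18 for Odf1 (-0.01 to 0.37).

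A small cluster outside the named classes was very high in Smcp. It held 1321 cells, of which 1207 came from R, 61 from VC-T, 23 from VC-R, 30 from UC and 0 from T. The members were left out of the clustering, but this cluster was picked for report because Smcp was among its leading genes. Its high Smcp is therefore a description and not a test. Smcp made up 55615 CPM there in R, 59430 in VC-R, 73346 in UC and 86354 in VC-T. The control values rest mostly on 1 library each: VC-R 2 gave 16 of its group's cells, UC 3 gave 21 and VC-T 2 gave 56. The groups are therefore not ranked. Oaz3 ranged from 8871 to 12860 and Odf1 from 2007 to 2520 over the same groups, whereas Akap4 (225 to 645) and Odf2 (1250 to 1500) were not above their spermatozoa-like levels. The cluster supplied 11.6%, 8.82% and 14.5% of all Smcp UMIs in R 1 to R 3. Without it, all-cell Smcp was 5633, 5711 and 5578 in R and 5107, 5688 and 4501 in VC-R.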

How the data were processed

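The authors deposited unnormalized UMI counts, 1 matrix for each of 15 libraries. Per the labels and the study's methods, the authors aligned reads to mm10 and counted with Cell Ranger 3.0.0, while the matrix headers name a later version, and whether intron reads were counted is not given in the sources used here. Counts predate the authors' corrections for free RNA and doublets. Groups came from the sample labels.

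A cell was kept with 500 or more genes, 1000 or more UMIs and a mitochondrial share below 30%, and the 5.4% with the highest doublet score per library were removed. Clustering (scanpy 1.11.5, 2000 variable genes without the members and the other tail genes, 30 components, 20 neighbours, Leiden resolution 1.2) gave 31 clusters. 5483 cells stayed unnamed. UMIs were summed per library and class (at least 10 cells) and tested with edgeR 4.0.16 (quasi-likelihood, TMM, low-count filter, Benjamini-Hochberg over all genes of a fit), 2 groups per fit, in 22 comparisons. Calls needed an adjusted p below 0.05 and a change of more than 1 log2 unit in either direction, as in the study. DESeq2 1.42.0, other filters and scales, and leaving out each library were alternatives. The test was tried on simulated counts.

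All 10 members are reported in every comparison. From a list of 36 other tail genes counts are given, and the 3 with the smallest adjusted p in each direction in T against UC spermatid-like cells are named, as are the 5 genes with the most similar UC profile. The members and lists were chosen with earlier results of these data known. Samples that share a replicate number are separate mice, and only in the T and UC spermatocyte-like cells were all 3 correlations of same-numbered deviations over 0.1 (0.64, 0.38 and 0.107), so that the blocked fit is given there. p-values measure the spread between mice.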

Additional observations from a re-analysis of the deposited data

Results flagged for a closer look

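In the sums over all cells, 4 members moved in opposite directions in the 2 vehicle-controlled comparisons: every T library lay below VC-T 2 and VC-T 3, and every R library lay above every VC-R library. Of 18617 genes tested in both comparisons, 7.18% showed this pattern, and 11.1% showed it or its reverse. Among the 4754 genes with T below VC-T 2 and VC-T 3, 28.1% had R above VC-R, where 4 of the 9 such members did. As log2 ratios of the mean levels, Odf1 was at -1.43 in T over VC-T and 0.35 in R over VC-R, Akap4 at -2.52 and 0.26, Smcp at -2.56 and 0.30, and Oaz3 at -2.20 and 0.26. For Smcp, without the Smcp-rich unnamed cluster, R 1 (5633) and R 3 (5578) lay below VC-R 2 (5688). The difference between the 2 effects was not tested. The R over VC-R part did not pass on its own for any of the 4 in edgeR. Groups of 3 are too small for a check of single outlying samples.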

How the results depend on the processing

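Of the counts of members called, those for all cells in T against UC (9) stayed at 9 with every library left out in turn, and T against VC-T all cells likewise. With VC-T 1 included, calls in T against VC-T went to 0 in all cells, spermatocyte-like and spermatid-like cells. Leaving out 1 library gave 2 to 5 calls in T against UC spermatogonia-like cells, 0 to 3 in spermatocyte-like (3 without UC 1), 2 to 5 in spermatid-like (5 without UC 3) and 1 to 5 in the late range (5 without T 1, 1 without T 3). It gave 1 to 4 in T against VC-T spermatocyte-like cells (1 without T 3 or without VC-T 2), 1 to 5 in spermatid-like cells (1 without T 3, 5 without VC-T 2) and 4 to 7 in R against T spermatocyte-like cells (7 without T 1). The replicate block gave 5 calls in T against UC spermatocyte-like cells and the pairing changed no other count of calls. DESeq2 called 4 there and no filter on low counts gave 4, and 4 in the late range. With UMI totals, an alternative chosen after seeing the data, calls went to 0 in T against UC and T against VC-T spermatid-like cells and in the late range, and Odf4 in T against UC became 0.00056 in all cells and 0.13 in spermatid-like cells. With cells of at least 2000 UMIs, calls were 2 in spermatogonia-like cells, 1 in the late range and 5 in T against VC-T spermatid-like cells. Matching on pseudotime gave 0 calls in T against both controls, with Odf1 at 0.037 and Akap3 at 0.016 against UC, Odf4 at -0.14 and Akap3 at 0.025 against VC-T, and in R against T Odf3 at -0.20, Odf4 at 0.11, Akap4 at -0.050, Ropn1 at -0.088 and Smcp at -0.036. Odf4 in T against VC-T was -0.040 without VC-T 2, 0.17 without VC-T 3 and -0.065 in cells of at least 2000 UMIs. Subtracting the somatic background gave 0 calls in T against UC spermatid-like and late-range cells and in both classes of T against VC-T, 2 in the early range (both higher in T) and 1 in R against T spermatocyte-like cells (lower in R, the opposite direction). It left 0 members testable in spermatogonia-like cells (0 calls) and 2 in spermatocyte-like cells. It reversed Odf1 (0.30), Odf2 (0.18), Odf4 (0.086), Fscb (0.011), Smcp (0.34) and Oaz3 (0.042) in T against UC spermatid-like cells. In the early range Akap4 (10.18), Ropn1 (0.64) and Oaz3 (2.72) reversed, and in the middle range Odf2 (0.65), Akap4 (1.07), Ropn1 (0.13), Smcp (1.34) and Oaz3 (0.65). Odf2 (0.051) reversed in T against VC-T spermatid-like cells, and Odf1 (-0.33), Akap4 (-0.33), Smcp (-1.02) and Oaz3 (-0.54) in R against T. That subtraction rests on as few as 10 somatic cells per library, or on the median share of the other libraries (32.44%) where there were fewer, was held at 50% in T 1, VC-T 3 and VC-R 2 (estimates of 68.58%, 58.43% and 68.31%), and left some sums near 0, so its single values carry little precision. The cause of the other changes was not tested. Late spermatid values of T rest on 64 to 177 cells per library.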
